A study of Mus musculus with 16 samples.

Results

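The 37 genes described here are the interferon response and antigen presentation genes of mouse cortical astrocytes and endothelial cells (ECs). They were taken by symbol from the 56980 gene identifiers of the count table, and each symbol matched 1 identifier. By role they were 2 subunits of the type I interferon receptor, 4 transcription factors, 3 genes of RNA sensing and feedback, 20 antiviral effectors and 8 genes of antigen presentation on MHC class I. Of the 37, 36 had enough reads to be tested in ECs and 35 in astrocytes. *Mx1*, an antiviral GTPase, had 0 to 17 reads per library and was not tested in either cell type, and *Oas1a*, a synthetase that activates RNA degradation, had 0 to 10 reads in astrocyte libraries and was tested only where ECs were in the fit.

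Interferons are secreted proteins that warn cells of infection. Type I interferons bind a receptor of the subunits *Ifnar1* and *Ifnar2*, and the signal is carried to the nucleus by a complex that includes STAT2 and IRF9 and binds interferon-stimulated response elements in the promoters of effector genes. Type II interferon uses another receptor and acts on gamma-activated sites, and *Irf1* is a classical target of that route. Peptide presentation needs an MHC class I heavy chain such as *H2-K1* with its light chain *B2m*, the immunoproteasome subunits *Psmb9* and *Psmb10* that cut peptides, the peptide pump *Tap1* and *Tap2*, and the loading chaperone *Tapbp*. *Nlrc5* is the transactivator of MHC class I genes. In the healthy brain, ECs are known to carry MHC class I at higher levels than neural cells.

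Cortices of P14 (postnatal day 14) mice were the source of the libraries. Mutants (*Hmgb1*ΔAstro) carried the tamoxifen-inducible *Aldh1l1*-Cre/ERT2 BAC transgene, active in astrocytes, together with loxP-flanked *Hmgb1* on both alleles (*Hmgb1*flx/flx). Wild types were *Hmgb1*flx/flx littermates without the transgene, so that the control animals carried the floxed alleles too, and by the study's methods all pups received tamoxifen in the first days after birth. The Cre line was on a C57BL/6N-congenic background and the floxed line on a B6 background, and littermates of both sexes were used. Astrocytes and ECs were isolated from each of 4 mutant and 4 wild-type animals, giving 16 libraries in 4 groups: mutant ECs, wild-type ECs, mutant astrocytes and wild-type astrocytes, with 4 libraries each. Myelin and CD45-positive cells were depleted with beads before ECs were taken by CD31 and astrocytes from the remaining suspension.

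Libraries held 16076010 to 23132312 counted reads, with reads in 24029 to 27113 genes. *Hmgb1*, the targeted gene, stood at 35.5, 40.8, 41.9 and 51.8 CPM (read counts scaled to a common library size, as in the plots) in mutant astrocytes, against 91.0, 92.4, 128 and 121 CPM in wild-type astrocytes. The groups did not overlap, the log2 fold change was -1.36 (SE 0.15, adjusted p = 0.0605 by the edgeR quasi-likelihood test with Benjamini-Hochberg adjustment; exact permutation p = 0.0286, the smallest that 4 against 4 can give), and in ECs it was -0.05 (SE 0.06). Astrocyte markers summed to 39405 to 55589 CPM in astrocyte libraries and to 1057 to 1664 CPM in ECs, and endothelial markers to 17895 to 22115 CPM in ECs and to 114 to 195 CPM in astrocytes. Fibroblast and meninges markers summed to 4615 to 6586 CPM in ECs and to 376 to 661 CPM in astrocytes. Pericyte and smooth muscle markers summed to 2507 to 5029 CPM in ECs and to 434 to 1591 CPM in astrocytes. Sex-linked RNA divided the animals into sets of 4. Mutants 2 and 13 and wild types 5 and 9 had Y-linked transcripts, while mutants 18 and 21 and wild types 19 and 22 had *Xist*, which silences an X chromosome in female cells. The labels give no sex, litter or day of isolation for any animal, so these cannot be told apart from the sets, which also coincide with animal numbers up to 13 and from 18 upward. Values of single libraries are given in the order of animals 2, 13, 18 and 21 for mutants and 5, 9, 19 and 22 for wild types.

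Promoters of the antiviral effectors carried the interferon-stimulated response element letters more often than promoters at large. The element was searched as a double GAAA, GAAA followed by any 2 bases and GAAA again. Each window ran from 250 bases before to 50 bases after the start of the canonical transcript (GRCm39, GENCODE M39), and both strands were searched. The double GAAA was found in 12 of the 37 members (32.4%), against 3.83% of 21631 promoters of protein-coding genes, and the shorter GAANNGAAA, counted separately and able to overlap it, in 12 of 37 (32.4%), against 7.88%. TTCNNNGAA, the letters of a gamma-activated site, was found in 7 of 37 (18.9%), against 8.85%. By role, the double GAAA was in 8 of the 20 antiviral effectors (40%) and in 1 of the 8 antigen presentation genes (12.5%), *Nlrc5*, where it began just after the start. The double GAAA was also in 2 of the 3 genes of sensing and feedback, 1 of the 4 transcription factors and 0 of the 2 receptor subunits. Among 136 further genes of the pathway 43 had it (31.6%). Effectors and presentation genes were closer for the shorter GAANNGAAA. It was in 7 of the 20 antiviral effectors (35%) and in 2 of the 8 antigen presentation genes (25%), *Tapbp* and *H2-K1*. The sequences below are stretches of the promoters of *Isg15* and *Ifit1*, effectors with adjacent matches, *Usp18*, which switches receptor signalling off, *Bst2*, a tether of virus particles, *Irf1* and *H2-K1*. They are shown to set the closely spaced matches of effectors beside *Irf1* and *H2-K1*, in which the double GAAA was not found in this window. Capitals mark the matches in the stretch, the double GAAA or its reverse complement in the 4 genes listed at the top, TTCNNNGAA in *Irf1* and GAANNGAAA or its reverse complement in *H2-K1*. A match is a description of the letters and not a bound site.
Isg15, chr4:156285307-156285366, minus strand: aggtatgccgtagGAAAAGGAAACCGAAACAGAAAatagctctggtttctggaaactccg
Ifit1, chr19:34618179-34618238, plus strand: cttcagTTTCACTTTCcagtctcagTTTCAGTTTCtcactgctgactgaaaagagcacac
Usp18, chr6:121222781-121222840, plus strand: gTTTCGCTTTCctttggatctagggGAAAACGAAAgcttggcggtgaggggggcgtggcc
Bst2, chr8:71990206-71990265, minus strand: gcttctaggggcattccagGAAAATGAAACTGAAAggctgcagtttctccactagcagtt
Irf1, chr11:53660726-53660784, plus strand: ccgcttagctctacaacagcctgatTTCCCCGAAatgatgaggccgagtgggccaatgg
H2-K1, chr17:34219378-34219436, minus strand: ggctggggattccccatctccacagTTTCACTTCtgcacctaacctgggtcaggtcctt

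The class I genes were the most abundant members per kilobase of exon in both cell types. In ECs, the mean of 8 libraries was 362 CPM per kb for *B2m*, 202 for *H2-K1*, 119.9 for *Ifitm3*, which blocks virus entry at membranes, 54.8 for *Ifnar1* and 41.5 for *Bst2*. In astrocytes it was 32.4 CPM per kb for *B2m*, 21.7 for *H2-K1*, 14.04 for *Ifitm3*, 13.1 for *Ifnar1* and 10.9 for *Tapbp*. At the low end were *Mx1* at 0.103 CPM per kb in ECs and 0.0769 in astrocytes, and *Oas1a* at 0.0203 CPM per kb in astrocytes. Members differed widely in how evenly they were expressed over animals. Over the 8 EC libraries, the coefficient of variation was 117% for *Nlrc5*, 95.02% for *H2-K1*, 84.8% for *Psmb9*, 84.6% for *Tap1* and 78.2% for *B2m*, against 6.57% for *Trim25*, a ubiquitin ligase of RNA sensing, 6.84% for *Ifnar2* and 7.70% for *Ifnar1* (these 8 members were named after their values were seen). Thus the receptor was steady from animal to animal while the presentation genes named here were not. *Psmb10*, *Tap2* and *Tapbp*, also presentation genes, differed less between the sets of animals, as given below. The effector *Ifit3* varied widely too, from 3.13 to 21.1 CPM in wild-type ECs.

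**Figure D1:**
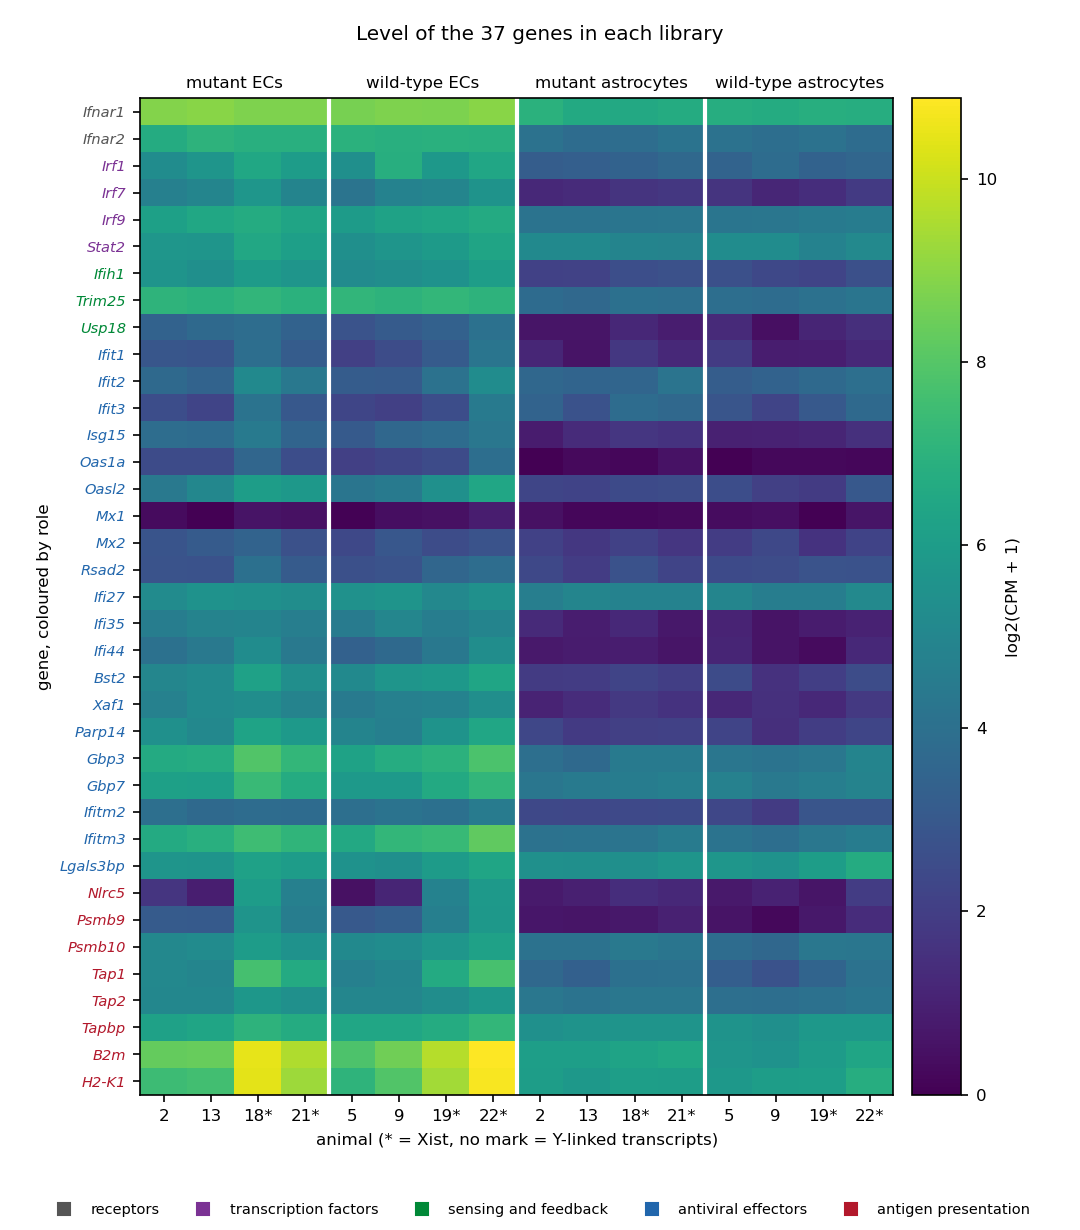
Heat map of log2(CPM + 1) of the 37 genes (rows, coloured by role) in the 16 libraries (columns, by group and animal, with an asterisk for animals with Xist). *B2m* and *H2-K1* are brightest in ECs of animals 18 and 22, and *Ifnar1* is even across the ECs.

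Nearly all members were higher in ECs than in astrocytes. In mutants, 34 of 36 members were higher in ECs and 0 lower, where 38.8% of 16508 tested genes were higher and 39.1% lower. In wild types, 33 of 36 were higher and 0 lower, where 38.3% of 16336 tested genes were higher and 38.2% lower (edgeR quasi-likelihood, Benjamini-Hochberg, adjusted p under 0.05). The median log2 fold change of the members was 2.95 in mutants and 3.02 in wild types, while the median of all tested genes was 0.01 in mutants and 0.02 in wild types. The lowest EC library exceeded the highest astrocyte library for 32 members in mutants (35.8% of all tested genes) and 29 in wild types (36.0%). ECs and astrocytes of 1 animal are not independent, and with the animal as a block the counts stayed at 34 and 33. As these are bulk samples, fewer cells expressing a gene and less RNA per cell cannot be told apart. The part of fibroblasts, pericytes and other cells in the EC libraries was not tested.

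The members with the widest gap were *Oas1a*, *Psmb9*, *Ifi35*, *Ifi44* and *Nlrc5*, the same 5 genes in mutants and in wild types. *Oas1a* stood at 4.68, 4.67, 11.2 and 4.90 CPM in mutant ECs and 0, 0.195, 0.151 and 0.443 CPM in mutant astrocytes (log2 fold change 4.94, SE 0.59), and at 3.12, 3.80, 4.64 and 14.1 CPM in wild-type ECs and 0, 0.180, 0.172 and 0.157 CPM in wild-type astrocytes (5.61, SE 0.74). Animals 18 and 22 had more than any other EC library, and the astrocyte values rest on 17 reads in mutants and 9 in wild types, so the fold is known only roughly. *Ifi35*, an interferon-induced leucine zipper protein, stood at 23.4, 28.1, 29.1 and 24.2 CPM in mutant ECs and 1.42, 0.827, 1.36 and 0.620 CPM in mutant astrocytes (4.68, SE 0.23). In wild types it was at 22.1, 31.3, 23.3 and 28.9 CPM in ECs and 1.10, 0.480, 0.802 and 1.05 CPM in astrocytes (4.94, SE 0.25), and it was even within each cell type.

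*Ifi44*, an interferon-induced protein, stood at 15.9, 19.99, 38.6 and 19.995 CPM in mutant ECs and 0.682, 0.778, 0.856 and 0.531 CPM in mutant astrocytes (5.08, SE 0.34). In wild types it was at 9.50, 12.2, 19.6 and 39.8 CPM in ECs and 1.15, 0.480, 0.229 and 1.41 CPM in astrocytes (4.62, SE 0.62). Again ECs of animals 18 and 22 were the highest, and the cell types did not overlap. *Psmb9* stood at 7.64, 7.57, 48.3 and 23.7 CPM in mutant ECs and 0.568, 0.535, 0.604 and 1.02 CPM in mutant astrocytes (5.01, SE 0.71), and at 7.13, 8.41, 24.8 and 55.5 CPM in wild-type ECs and 0.495, 0.180, 0.630 and 1.62 CPM in wild-type astrocytes (5.01, SE 0.85). *Psmb9* (chr17:34400960-34406738, minus strand) shares exonic bases with *Tap1* (chr17:34405996-34416199, plus strand), and since the strand setting of the counting is not given in the sources used here, reads of the shared stretch cannot be assigned to either with certainty.

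*Nlrc5* was the member of these 5 without a called gap among animals with Y-linked transcripts. It stood at 2.21, 0.861, 64.0 and 25.6 CPM in mutant ECs and 0.738, 0.924, 1.66 and 1.37 CPM in mutant astrocytes (4.32, SE 1.20, adjusted p = 0.00751 by edgeR), and at 0.419, 1.20, 27.3 and 57.4 CPM in wild-type ECs and 0.660, 1.08, 0.515 and 2.83 CPM in wild-type astrocytes (4.08, SE 1.36, adjusted p = 0.0205). Among animals with Y-linked transcripts its log2 fold change was 0.91 in mutants (adjusted p = 0.136) and -0.08 in wild types, and among animals with *Xist* it was 4.94 in mutants and 4.65 in wild types. The other class I genes were higher in ECs in both sets, by different amounts. *H2-K1* had log2 fold changes of 1.64 in mutants and 1.67 in wild types with Y-linked transcripts, and of 3.94 in mutants and 3.79 in wild types with *Xist*. *B2m* had 2.29 in mutants and 2.65 in wild types with Y-linked transcripts, and 3.74 in mutants and 4.21 in wild types with *Xist*. The median of the members was 2.34 in mutants and 2.25 in wild types with Y-linked transcripts, and 3.01 in mutants and 3.08 in wild types with *Xist*.

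By role, both receptor subunits, all 4 transcription factors, all 3 genes of sensing and feedback and all 8 antigen presentation genes were higher in ECs in both genotypes. *Ifnar2* had a log2 fold change of 2.97 (SE 0.10) in mutants and 2.99 (SE 0.09) in wild types, *Irf7*, a master regulator of interferon genes, 4.21 (SE 0.29) in mutants and 3.98 (SE 0.35) in wild types, and *Stat2* 1.10 (SE 0.19) in mutants and 0.78 (SE 0.20) in wild types. Of the 19 effectors tested, 17 were higher in mutants and 16 in wild types. The effectors that did not pass were *Ifit2* and *Ifit3*, of the IFIT family of RNA-binding proteins, and in wild types also *Lgals3bp*, a secreted glycoprotein. *Ifit3* stood at 4.90, 3.67, 16.5 and 6.91 CPM in mutant ECs and 10.1, 5.69, 13.2 and 11.7 CPM in mutant astrocytes (-0.32, SE 0.45), and at 3.77, 3.13, 4.94 and 21.1 CPM in wild-type ECs and 6.21, 3.66, 7.27 and 12.2 CPM in wild-type astrocytes (0.18, SE 0.63). The cell types overlapped in both genotypes. *Ifit2* had 0.67 (SE 0.37) in mutants and 0.64 (SE 0.49) in wild types, and *Lgals3bp* 0.46 (SE 0.14) in mutants and -0.17 (SE 0.29) in wild types. All genes singled out here by role were picked with their values in view. Among mutants with Y-linked transcripts, *Ifit3* was lower in ECs, at -0.84 (SE 0.32, adjusted p = 0.0433 by edgeR with 2 animals).

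**Figure D2:**
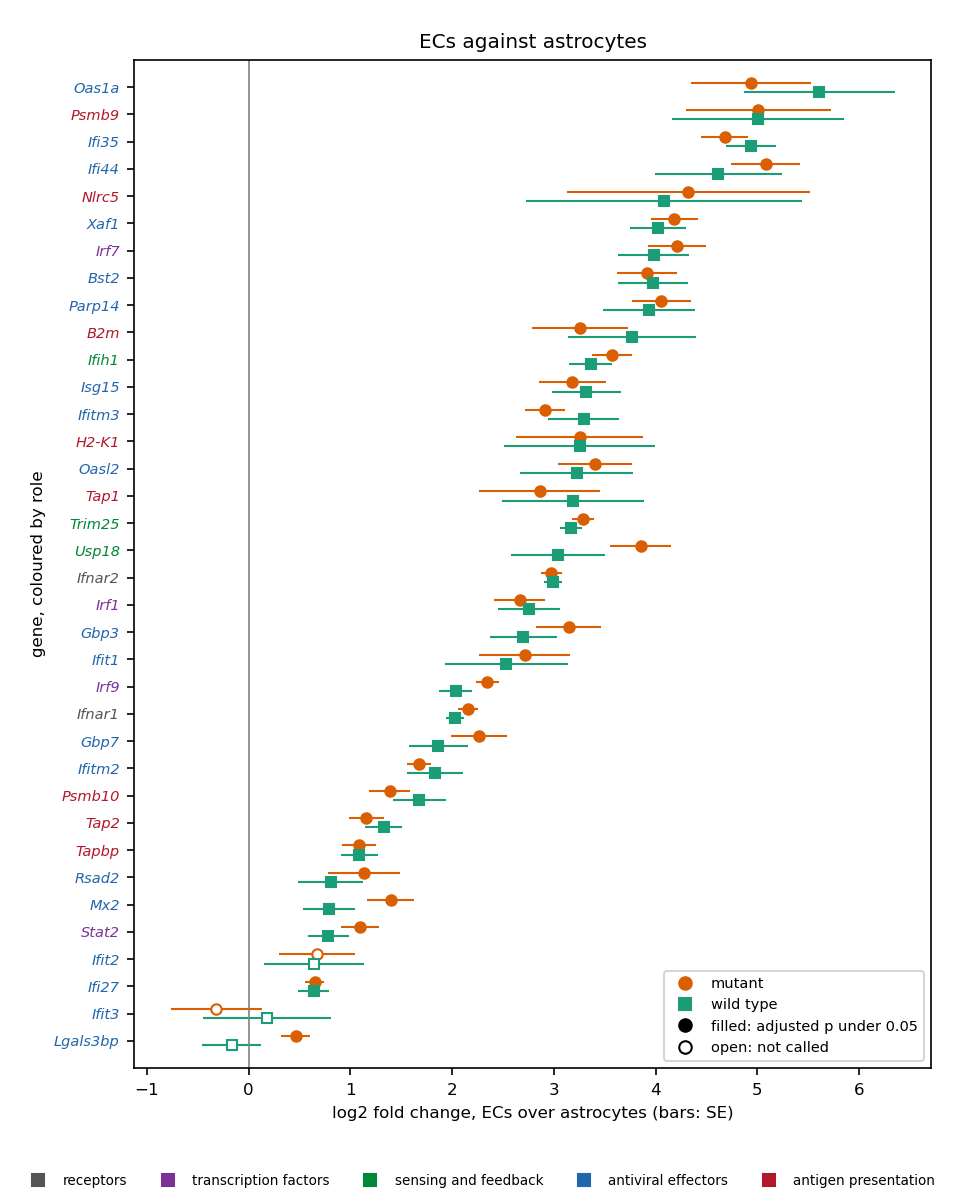
Log2 fold change of ECs over astrocytes for the 36 tested members, with bars of 1 SE, circles for mutants and squares for wild types, filled where the adjusted p was under 0.05. *Oas1a*, *Psmb9*, *Ifi35*, *Ifi44* and *Nlrc5* lie furthest right, and *Ifit2* and *Ifit3* are open in both genotypes.

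No member was called between mutant and wild-type astrocytes. Of 35 members tested, 0 passed, against 0.00631% of all tested genes. *Hmgb1*, the targeted gene, did not pass in this fit either (adjusted p = 0.0605 by edgeR). A lack of calls thus does not show a lack of change. With DESeq2 and with limma-voom 0 members passed too, and the shares of all genes called in those fits are not given here. At an unadjusted p under 0.05 there were 2 members, *Lgals3bp* and *Tap2*, where 7.44% of all genes reached it. The median log2 fold change was -0.11 over the members and 0.01 over all tested genes, with a range of -0.17 to 0.01 when each animal was left out (0.01 without wild type 22), and the groups overlapped for all 35 members (3.22% of all genes were fully separated upward and 2.04% downward). *Lgals3bp* stood at 43.1, 41.5, 42.0 and 49.7 CPM in mutant astrocytes, against 51.2, 45.9, 65.3 and 103 CPM in wild-type astrocytes (log2 fold change -0.60, SE 0.23, unadjusted p = 0.0262, adjusted p = 0.623 by edgeR; exact permutation p = 0.0571). The single high value was wild-type animal 22, and the log2 ratio of the means was -0.20 among animals with Y-linked transcripts and -0.87 among those with *Xist*. *Tap2* stood at 18.97, 16.7, 18.9 and 18.6 CPM in mutant astrocytes, against 14.7, 14.3, 15.5 and 17.5 CPM in wild-type astrocytes (0.23, SE 0.10, adjusted p = 0.661 by edgeR; exact permutation p = 0.0571), and its within-set ratios were 0.30 with Y-linked transcripts and 0.19 with *Xist*. Mutant 13 lay below wild type 22, so the groups overlapped by that pair.

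The next 3 members by p were further from the threshold. *Irf9* stood at 16.7, 16.6, 17.6 and 18.2 CPM in mutant astrocytes, against 17.9, 18.1, 20.7 and 22.7 CPM in wild-type astrocytes (-0.21, SE 0.10; within-set ratios -0.11 with Y-linked transcripts and -0.28 with *Xist*). *B2m* stood at 66.6, 68.2, 77.98 and 89.5 CPM in mutant astrocytes, against 50.6, 46.2, 62.5 and 84.1 CPM in wild-type astrocytes (0.30, SE 0.19; within-set ratios 0.48 and 0.19). *Rsad2*, the radical SAM enzyme viperin, stood at 4.09, 2.82, 5.59 and 3.63 CPM in mutant astrocytes, against 4.40, 4.80, 5.78 and 5.65 CPM in wild-type astrocytes (-0.36, SE 0.23; within-set ratios -0.41 and -0.31). For each of these 3 the groups overlapped when the sets were pooled. Within each set, both mutants lay below both wild types for *Irf9*, *Rsad2* and *Lgals3bp*, and above both for *Tap2*. For *B2m* both mutants lay above both wild types among animals with Y-linked transcripts only. How many of all genes separated in this way was not counted, so it is not read as a result about the members. Among the remaining 30 tested members the log2 fold change lay between -0.57 (*Usp18*, SE 0.47) and 0.46 (*Ifit3*, SE 0.37). *Oas1a* had 17 reads over the mutant astrocyte libraries and 9 over the wild-type ones, and *Mx1* 18 and 21 reads over the same libraries, too few to compare.

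In ECs, which kept *Hmgb1*, 0 of 36 members passed between genotypes, against 0% of all tested genes. With DESeq2 and with limma-voom 0 passed too, given without the share of all genes in those fits. At an unadjusted p under 0.05 there was 1 member, *Ifitm2*, where 5.24% of all genes reached it. *Ifitm2*, a relative of *Ifitm3*, stood at 14.5, 12.1, 13.2 and 12.8 CPM in mutant ECs, against 14.7, 16.9, 15.2 and 21.8 CPM in wild-type ECs (-0.37, SE 0.14, unadjusted p = 0.0251, adjusted p = 0.943 by edgeR; exact permutation p = 0.0286). All 4 mutant values lay below all 4 wild-type values, as they did for 1.94% of all genes, and the within-set ratios were -0.24 with Y-linked transcripts and -0.51 with *Xist*. *Mx2* stood at 6.18, 7.66, 9.88 and 5.42 CPM in mutant ECs, against 4.05, 6.73, 4.82 and 5.94 CPM in wild-type ECs (0.45, SE 0.23; within-set ratios 0.36 and 0.51). *Ifitm3* stood at 98.1, 115, 178 and 138 CPM in mutant ECs, against 92.5, 148, 158 and 301 CPM in wild-type ECs (-0.39, SE 0.34; within-set ratios -0.18 and -0.54). The value of 301 CPM belonged to animal 22, and without that animal the *Ifitm3* difference was 0.01.

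*Xaf1*, a pro-apoptotic interferon target, stood at 26.7, 35.6, 39.2 and 28.3 CPM in mutant ECs, against 21.3, 25.5, 26.9 and 40.1 CPM in wild-type ECs (0.20, SE 0.20; within-set ratios 0.41 and 0.01). *Trim25* stood at 133, 124, 139.9 and 121 CPM in mutant ECs, against 140.4, 131, 147 and 129 CPM in wild-type ECs (-0.07, SE 0.07; within-set ratios -0.08 and -0.08). Neither difference exceeded the spread between animals. The median over members was 0.05 (0.00 over all genes), and leaving out each animal in turn moved it between -0.15 without mutant 18 and 0.44 without wild type 22. Precision was poorest for 5 presentation genes and *Ifit3*. The SE of the log2 fold change was 1.43 for *Nlrc5*, 0.89 for *H2-K1*, 0.80 for *Tap1*, 0.79 for *Psmb9*, 0.70 for *B2m* and 0.70 for *Ifit3*. These SEs are from the fit without the set of the animals. With the set as a covariate 0 members passed as well, given without the share of all genes in that fit.

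The genotype effect in astrocytes minus that in ECs was not called for any of 36 members, where 0.0114% of 17493 genes were called, and 0 members and 2.81% of all genes had an unadjusted p under 0.05. DESeq2, limma-voom and the fit with the animal as a block also gave 0 members, given without the share of all genes in those fits. The 3 members with the smallest p were *Lgals3bp* at -0.64 (SE 0.35), *Mx2* at -0.62 (SE 0.35) and *Irf9* at -0.32 (SE 0.20). *Lgals3bp* stood in ECs at 49.3, 49.1, 74.5 and 63.7 CPM in mutants, against 46.0, 41.8, 61.9 and 84.0 CPM in wild types. *Mx2* stood in astrocytes at 3.35, 2.43, 3.27 and 2.30 CPM in mutants, against 2.86, 4.08, 2.06 and 3.61 CPM in wild types. *Irf9* stood in ECs at 72.6, 87.3, 103 and 80.3 CPM in mutants, against 61.1, 76.6, 83.4 and 101 CPM in wild types. In each of these the genotypes overlapped.

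**Figure D3:**
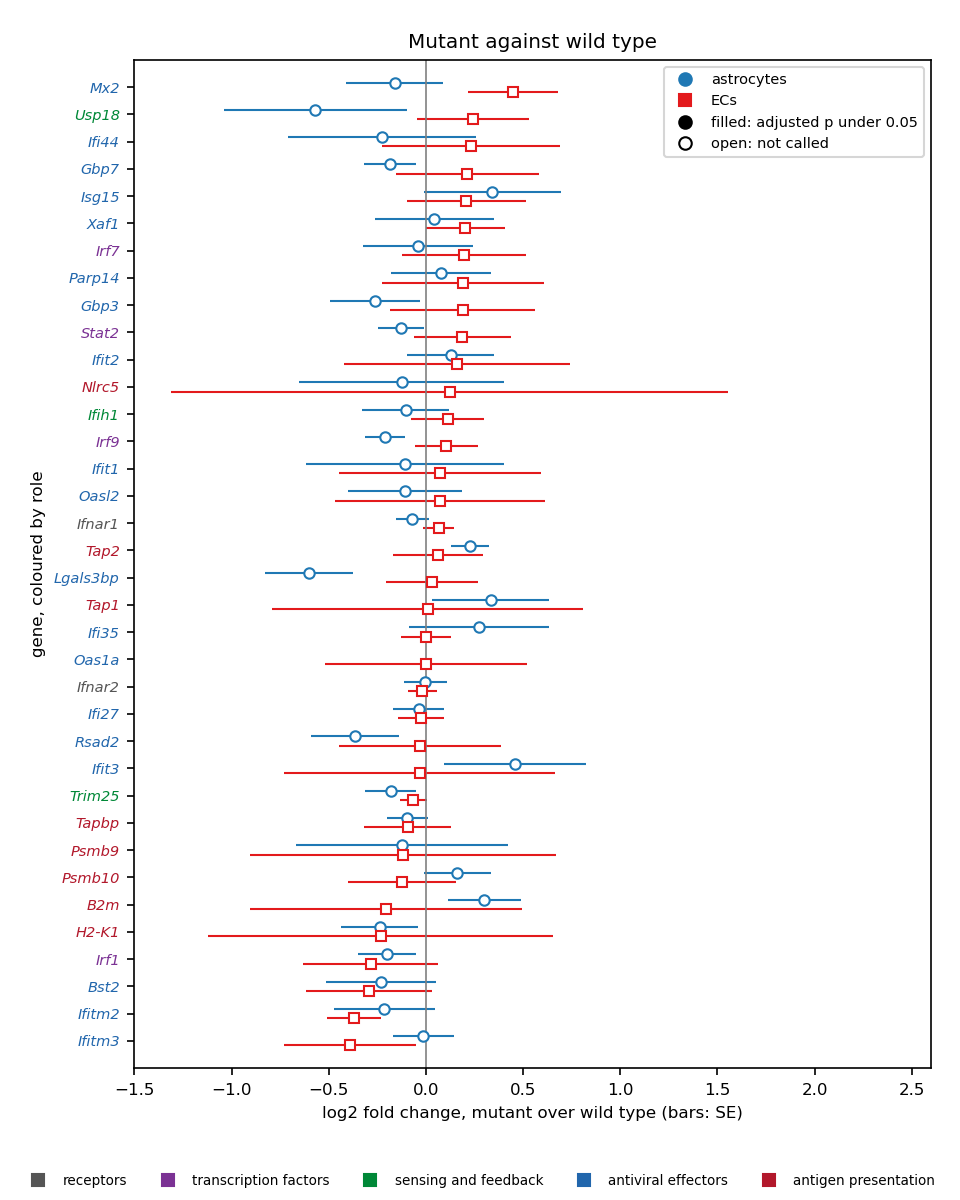
Log2 fold change of mutants over wild types for the members, with bars of 1 SE, circles for astrocytes and squares for ECs. All points are open because no member passed in either cell type, and the bars of *Nlrc5*, *H2-K1*, *Tap1*, *Psmb9* and *B2m* in ECs are wide, with SEs from 0.70 to 1.43.

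Antigen presentation genes, and part of the effectors, were lower in ECs of animals with Y-linked transcripts. In ECs of animals with Y-linked transcripts, 16 of 36 members were lower than in ECs of animals with *Xist* and 0 were higher, in a fit with genotype and set, where 2.58% of 15750 genes were lower and 1.24% higher (edgeR quasi-likelihood, Benjamini-Hochberg). The median was -0.71 over the members and 0.00 over all genes. For 18 members all 4 animals with Y-linked transcripts lay below all 4 with *Xist*, as they did for 5.25% of all genes, and for 0 members they lay above (6.76%). All 8 antigen presentation genes were lower, 7 of 19 effectors and *Stat2* among 4 transcription factors, and none of the receptor subunits or the genes of sensing and feedback passed. Without animal 18 the count was 7, without animal 13 it was 8, without animal 5 it was 10, and without animals 18 and 22 together it was 8, all of them among the 16. The shares of all genes called in these smaller fits are not given here, so these counts have no background beside them. The split into sets was known from earlier results of these data, and which property of the animals it stands for cannot be told apart.

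*Nlrc5* moved most. It stood at 2.21 and 0.861 CPM in ECs of mutants 2 and 13 and at 0.419 and 1.20 CPM in those of wild types 5 and 9, against 64.0 and 25.6 CPM in ECs of mutants 18 and 21 and 27.3 and 57.4 CPM in those of wild types 19 and 22. The sets were far apart and the genotypes intermixed, and the log2 fold change was -5.25 (SE 0.49, adjusted p = 0.00269 by edgeR), or 38.1-fold lower with Y-linked transcripts. *H2-K1* stood at 174 and 191 CPM in ECs of mutants 2 and 13 and at 133 and 242 CPM in those of wild types 5 and 9, against 1369 and 618 CPM in ECs of mutants 18 and 21 and 668 and 1763 CPM in those of wild types 19 and 22 (-2.60, SE 0.36, adjusted p = 0.00790 by edgeR). *Tap1* stood at 32.8 and 30.1 CPM in mutants 2 and 13 and at 25.3 and 30.1 CPM in wild types 5 and 9, against 201 and 99.5 CPM in mutants 18 and 21 and 100.5 and 211 CPM in wild types 19 and 22 (-2.40, SE 0.28, adjusted p = 0.00454 by edgeR). Within the set with *Xist*, animals 18 and 22 lay well above animals 21 and 19 for each of these genes, whereas no animal with Y-linked transcripts came near the lowest animal with *Xist*.

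*Psmb9*, given per animal above, was lower with Y-linked transcripts by -2.33 on the log2 scale (SE 0.29, adjusted p = 0.00504 by edgeR), and the groups did not overlap. *B2m* (chr2:121977957-121983594), the light chain shared by all class I molecules, stood at 315 and 329.6 CPM in ECs of mutants 2 and 13 and at 229 and 371 CPM in those of wild types 5 and 9, against 1402 and 762 CPM in mutants 18 and 21 and 803 and 1879 CPM in wild types 19 and 22 (-1.98, SE 0.30, adjusted p = 0.0111 by edgeR). The remaining presentation genes moved less, *Psmb10* by -0.73 (SE 0.14), *Tap2* by -0.62 (SE 0.10) and *Tapbp* by -0.58 (SE 0.12). The called effectors were *Ifit2* at -1.57, *Oasl2*, an OAS-like protein, at -1.496, *Parp14*, a mono-ADP-ribosyltransferase, at -1.10, *Rsad2* at -1.10, *Gbp7* at -1.01 and *Gbp3* at -0.94, both guanylate-binding proteins, and *Lgals3bp* at -0.64. *Stat2* was at -0.67 (SE 0.12). Members without a call at the other end were *Ifi27* at 0.12, *Ifnar2* at -0.01, *Ifnar1* at -0.02, *Ifi35* at -0.04 and *Trim25* at -0.05. *H2-K1* shares long stretches with other class I genes and the Gbp, Ifit and Oas genes with their neighbours, so single members of these families are uncertain.

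**Figure D4:**
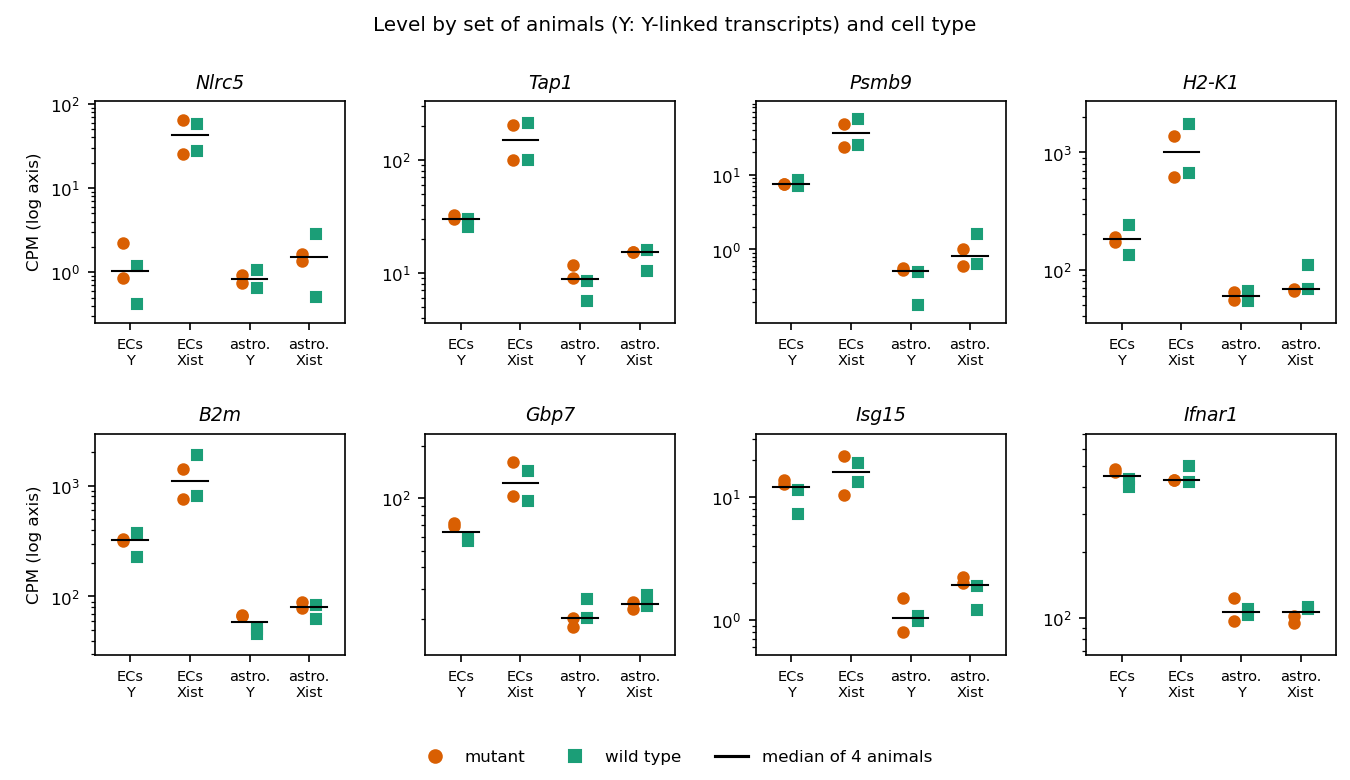
CPM on a log axis of 8 members in ECs and astrocytes of animals with Y-linked transcripts (Y) and animals with Xist, with circles for mutants, squares for wild types and a line at the median of 4 animals. *Nlrc5*, *Tap1*, *Psmb9*, *H2-K1* and *B2m* separate the sets in ECs, while *Ifnar1* does not.

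In ECs the same animals were highest for most members. Over the 36 tested members, ECs of animal 22 had the highest value for 22 and ECs of animal 18 for 9, both were in the top 2 for 28, and ECs of animal 5 had the lowest value for 23. In astrocytes animals 18 and 22 were both in the top 2 for 4 of 35 members. Ranks were not counted over all genes, so these counts have no background beside them. Members that vary together are also not separate observations. Markers of immune and erythroid cells moved with the sets in ECs, and some other lists shifted too. Astrocyte markers summed to 1057 to 1286 CPM in ECs with Y-linked transcripts, against 1267 to 1664 CPM in ECs with *Xist*. Fibroblast and meninges markers summed to 5866 to 6586 CPM, against 4615 to 5979 CPM, and endothelial markers to 19650 to 22115 CPM, against 17895 to 19643 CPM. Erythroid markers summed to 816 to 1172 CPM in ECs with Y-linked transcripts, against 1303 to 2037 CPM in ECs with *Xist*. The microglia and macrophage markers (16 of 17 matched) summed to 109.8 and 104 CPM in ECs of mutants 2 and 13 and to 112 and 296 CPM in those of wild types 5 and 9, against 359 and 320.1 CPM in mutants 18 and 21 and 263 and 449.6 CPM in wild types 19 and 22. The markers of lymphocytes and granulocytes (12 of 12 matched, with none above 1 CPM in all libraries of a group) summed to 1.63 to 3.41 CPM in ECs with Y-linked transcripts, against 12.9 to 38.1 CPM in ECs with *Xist*. Animal 9 departed from this order for microglia and macrophage markers (296 CPM). It did not for lymphocyte and granulocyte markers (3.41 CPM) or erythroid markers (1172 CPM). Its *H2-K1* was at 242 CPM, the highest of the set with Y-linked transcripts, and its *Nlrc5* at 1.20 CPM. The part of these cells in the result was not tested.

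In astrocytes the sets differed for 12 of 35 members, 11 lower and 1 higher with Y-linked transcripts, where 16.0% of 15850 genes were lower and 16.7% higher. Lower calls were thus more frequent among the members than among all genes, and the median was -0.31 (0.01 over all genes). *B2m* stood at 66.6 and 68.2 CPM in astrocytes of mutants 2 and 13 and at 50.6 and 46.2 CPM in those of wild types 5 and 9, against 77.98 and 89.5 CPM in mutants 18 and 21 and 62.5 and 84.1 CPM in wild types 19 and 22 (-0.47, SE 0.10, adjusted p = 0.00525 by edgeR). *Tap1* stood at 11.7 and 8.998 CPM in mutants 2 and 13 and at 8.52 and 5.64 CPM in wild types 5 and 9, against 15.3 and 15.5 CPM in mutants 18 and 21 and 10.4 and 16.0 CPM in wild types 19 and 22 (-0.74, SE 0.17, adjusted p = 0.00945 by edgeR). For both genes the sets overlapped when genotypes were pooled and separated within each genotype. *Gbp3* stood at 14.8 and 12.2 CPM in mutants 2 and 13 and at 18.5 and 16.4 CPM in wild types 5 and 9, against 20.7 and 21.6 CPM in mutants 18 and 21 and 18.6 and 28.9 CPM in wild types 19 and 22 (-0.56, SE 0.13). *Psmb10* stood at 16.1 and 16.1 CPM in mutants 2 and 13 and at 13.5 and 11.52 CPM in wild types 5 and 9, against 19.99 and 17.9 CPM in mutants 18 and 21 and 18.95 and 18.2 CPM in wild types 19 and 22 (-0.41, SE 0.10).

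The other members lower in astrocytes with Y-linked transcripts were *Ifit3* at -0.83, *Isg15*, a ubiquitin-like modifier, at -0.75, *Ifit2* at -0.49, *Lgals3bp* at -0.47, *Ifitm3* at -0.36, *Trim25* at -0.31 and *Tapbp* at -0.22. *Stat2* went the other way, at 0.28 (SE 0.07). It stood at 34.4 and 34.8 CPM in astrocytes of mutants 2 and 13 and at 37.6 and 38.1 CPM in those of wild types 5 and 9, against 28.9 and 28.1 CPM in mutants 18 and 21 and 27.5 and 33.6 CPM in wild types 19 and 22, and in ECs at 52.1 and 50.6 CPM in mutants 2 and 13 and 41.6 and 49.5 CPM in wild types 5 and 9, against 90.8 and 69.5 CPM in mutants 18 and 21 and 60.6 and 81.4 CPM in wild types 19 and 22. The sets thus separated in opposite directions in the 2 cell types. Full separation downward held for 8 members (13.2% of all genes) and upward for *Stat2* alone (15.4%). Without animal 22 the count of called members was 5, and without animals 18 and 22 it was 5. No share of all genes is given for these fits, so whether 5 exceeds the background cannot be told here. Astrocyte markers summed to 47433 to 55589 CPM in astrocytes with Y-linked transcripts, against 39405 to 42624 CPM in astrocytes with *Xist*, and endothelial markers to 160.5 to 195 CPM, against 114 to 149.6 CPM. Neuronal markers summed to 25.0003 to 37.8 CPM in astrocytes with Y-linked transcripts, against 102.0 to 162 CPM in astrocytes with *Xist*, and pericyte and smooth muscle markers to 891 to 1591 CPM, against 434 to 694 CPM. The part of these cells in the result was not tested.

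Whether the difference between the sets was the same in ECs and in astrocytes was tested in a fit of all 16 libraries. The difference between the sets in ECs minus that in astrocytes was called and negative for 7 of 36 members and positive for 0, where 7.36% of 17493 genes were negative and 7.51% positive. The 7 were *Nlrc5* at -4.32 (SE 0.78), *H2-K1* at -2.21 (SE 0.42), *Tap1* at -1.65 (SE 0.36), *B2m* at -1.499 (SE 0.35), *Stat2* at -0.94 (SE 0.15), *Gbp7* at -0.75 (SE 0.20) and *Tap2* at -0.47 (SE 0.13), with adjusted p from 0.00183 to 0.0322 by edgeR. Without animal 18 the count was 4, and with the animal as a block it was 10, both given without the share of all genes in the same fit. *Psmb9* had -1.21 (SE 0.62) and was not called.

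**Figure D5:**
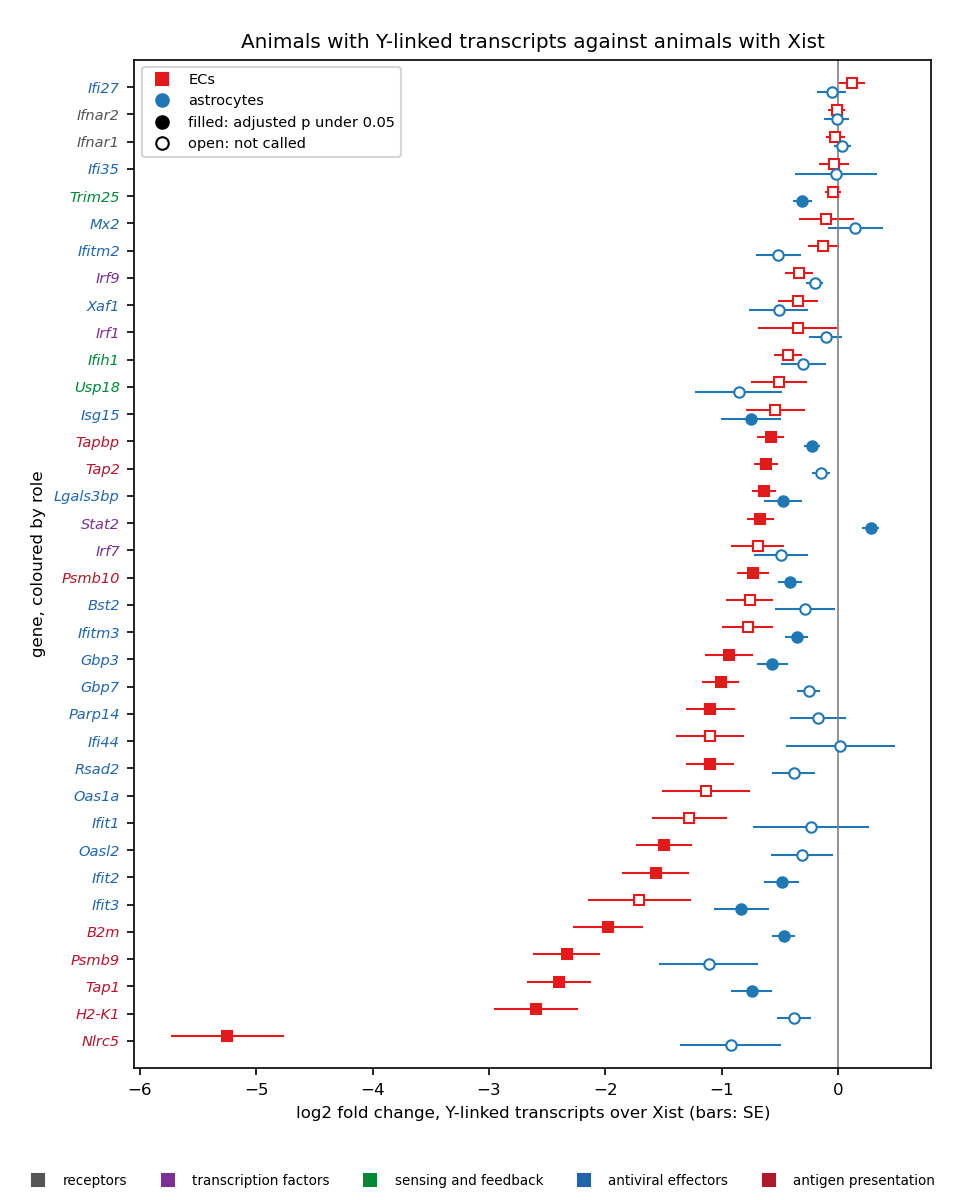
Log2 fold change of animals with Y-linked transcripts over animals with Xist for the members, with bars of 1 SE, squares for ECs and circles for astrocytes, filled where the adjusted p was under 0.05. *Nlrc5*, *H2-K1*, *Tap1*, *Psmb9* and *B2m* lie furthest left in ECs, and *Stat2* in astrocytes is the filled point right of 0.

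The pathway beyond the members was counted from a list of 136 further genes. The interferons themselves were at or near 0. Of 12 interferon genes, *Ifna1*, *Ifna2*, *Ifna4*, *Ifna5*, *Ifne*, *Ifnl2* and *Ifnl3* had 0 reads in all 16 libraries, and the highest value of any was 0.17 CPM, for *Ifng* in astrocytes of animal 19. Between genotypes, 0 of 90 tested genes passed in astrocytes and 0 of 112 in ECs, with 4 at an unadjusted p under 0.05 in each, where 7.44% of all genes reached it in astrocytes and 5.24% in ECs. The smallest p in astrocytes belonged to *Adar*, an RNA-editing enzyme, at -0.21 (SE 0.07), *Il10rb*, a receptor chain shared by interleukin 10 and type III interferons, at -0.43 (SE 0.17), and *H2-T24*, a class I-like gene, at -0.69 (SE 0.29). In ECs it belonged to *Ticam1*, an adaptor of RNA sensing, at -0.40 (SE 0.14), *Jak2*, a kinase of the type II receptor, at 0.15 (SE 0.05), and *Trim12c* at 0.26 (SE 0.10). The genotype effect in astrocytes minus that in ECs had its smallest p at *Il10rb* (-0.46, SE 0.17), *H2-T24* (-0.98, SE 0.45) and *Trim30a* (-1.23, SE 0.64), with 0 of 112 called.

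By cell type, 82 of 107 further genes were higher in ECs and 9 lower in mutants, and 80 of 105 were higher and 8 lower in wild types, against the shares of all genes given above. *Slfn5*, a Schlafen family gene, stood at 249, 214, 247 and 211 CPM in mutant ECs and 1.99, 1.36, 0.453 and 0.974 CPM in mutant astrocytes (7.65, SE 0.28), and at 243, 242, 231 and 248 CPM in wild-type ECs and 1.37, 2.10, 0.687 and 0.471 CPM in wild-type astrocytes (7.73, SE 0.32). Unlike *Nlrc5*, *H2-K1*, *Psmb9*, *Tap1* and *B2m*, it was level over all 8 EC libraries. *Il10rb* had 4.21 (SE 0.15) in mutants and 3.75 (SE 0.10) in wild types, *Rigi*, the RNA sensor RIG-I, 3.30 (SE 0.11) in mutants, and *Gbp9* 6.51 (SE 0.30) in wild types.

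Between the sets, 35 of 112 further genes were lower and 1 higher in ECs with Y-linked transcripts, where 2.58% of all genes were lower and 1.24% higher. In astrocytes 22 of 90 were lower and 12 higher, where the background was 16.0% lower and 16.7% higher. The gene higher in ECs was *Irf3*, a transcription factor of RNA sensing, at 0.25. *Irgm1*, an immunity-related GTPase, stood at 42.3 and 46.8 CPM in ECs of mutants 2 and 13 and at 33.8 and 40.6 CPM in those of wild types 5 and 9, against 204 and 106 CPM in mutants 18 and 21 and 104 and 192 CPM in wild types 19 and 22 (-1.92, SE 0.24, adjusted p = 0.00504 by edgeR). *Psmb8*, the third inducible immunoproteasome subunit, was at -2.18 (SE 0.29), and *Iigp1*, another immunity-related GTPase, at -3.53 (SE 0.47), with 4.70 to 7.38 CPM in ECs with Y-linked transcripts, against 26.1 to 98.3 CPM in ECs with *Xist*. Both separated the sets without overlap. In the wider antigen presentation list 10 of 22 genes were lower in ECs (2.58% of all genes) and 12 of 19 in astrocytes (16.0% of all genes), and 0 were higher in either. In astrocytes the smallest p belonged to *Socs3*, a feedback inhibitor of cytokine signalling, at -1.27 (SE 0.12), *Psme1*, a proteasome activator subunit, at -0.54 (SE 0.07), and *Cd274*, which encodes PD-L1, at -1.56 (SE 0.21).

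The difference between the sets in ECs minus that in astrocytes was called for 21 of 112 further genes, 18 negative and 3 positive (7.36% and 7.51% of all genes), with *Parp10* at -1.31 (SE 0.21), *Ciita*, the transactivator of MHC class II, at -4.12 (SE 0.71) and *Slfn5* at -1.34 (SE 0.26) having the smallest p. *Slfn5* was level over the EC libraries, as given above. Its difference lay in the low astrocyte values, which were higher with Y-linked transcripts. *Ciita* stood at 0.398 and 0.227 CPM in ECs of mutants 2 and 13 and at 0.419 and 0.288 CPM in those of wild types 5 and 9, against 6.75 and 1.498 CPM in mutants 18 and 21 and 2.26 and 8.98 CPM in wild types 19 and 22. *Cd74*, the class II invariant chain, which is abundant in macrophages and B cells and was named after its values were seen, stood at 1.02 and 1.81 CPM in mutants 2 and 13 and 1.07 and 2.74 CPM in wild types 5 and 9, against 72.0 and 10.7 CPM in mutants 18 and 21 and 16.8 and 236 CPM in wild types 19 and 22. The highest values were again those of animals 18 and 22.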

How the data were processed

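RNA sequencing of astrocytes and ECs from 8 mice gave 16 libraries. The deposited values were raw read counts per gene: the authors trimmed reads with the FASTX-toolkit, then aligned them to GRCm39 and counted them with STAR (2.7.9a), and used DESeq2 for their own tests. Neither annotation release nor strandedness of the counts is known (not given in the sources used here), so overlapping genes and near-identical copies are uncertain. Of 56980 identifiers, 56236 matched GENCODE M39, which gave symbols, positions and exonic lengths.

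Counts were tested with edgeR (4.0.16, R 4.3.3): TMM scaling, filterByExpr, the quasi-likelihood F-test and Benjamini-Hochberg adjustment over all tested genes, with adjusted p under 0.05 called. Genotypes were compared within a cell type, cell types within a genotype, and sets of animals (Y-linked transcripts of at least 1 CPM, or not) with genotype in the model. The difference of genotype effects and the difference between the sets by cell type used all 16 libraries, and the set difference by cell type was added after the data were seen. SE was the log2 fold change divided by the square root of F. CPM were scaled by TMM over all libraries. Exact permutation tests were two-sided on log2(CPM + 1), with a smallest p of 0.0286 for 4 against 4. Alternatives were DESeq2 (1.42.0), limma-voom (limma 3.58.1), other scaling and filters, *Xist* or the set as covariate, each animal left out and the animal as a block. Only the fit of mutant against wild-type astrocytes was tested on simulated data, with counts drawn independently for each library.

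ECs and astrocytes with the same number came from the same animal, and their deviations from the group means correlated at 0.172 to 0.461 over 11769 genes, highest with the animal's own number for 7 of 8 animals and not for animal 19. No replicate pair held identical values. Genes were named by smallest p or largest change by a rule stated per comparison: 5 for genotype, 3 for the difference of genotype effects, 5 per direction for cell type, 4 per cell type for the sets, 5 per cell type by level, and up to 3 further pathway genes per comparison. Others are said to be chosen after their values were seen. The members, lists and the split into sets were chosen with earlier results of these data known. Within a cell type each animal was a separate sample, so p-values of the genotype and set comparisons measure the spread between animals. Comparisons of cell types and differences by cell type held both libraries of an animal, without the animal in the main fit. Their p-values measure the spread between libraries.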

Additional observations from a re-analysis of the deposited data

Results flagged for a closer look

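Among 148 groups of 4 libraries, 7 held a library far from the other 3, where chance gives about 5% of groups. The 7 are near that share, so they are listed as values and not read as a result about the members. *Oas1a* was at 11.2 CPM in ECs of mutant 18 (4.67 to 4.90 CPM in the other mutant ECs) and at 14.1 CPM in ECs of wild type 22 (3.12 to 4.64 CPM in the other wild-type ECs), and *Ifit3* was at 21.1 CPM in ECs of wild type 22 (3.13 to 4.94 CPM). In astrocytes of mutant 21, *Ifit2* was at 17.0 CPM (10.5 to 11.4 CPM in the others) and *Psmb9* at 1.02 CPM (0.535 to 0.604 CPM). *Tap2* was at 16.7 CPM in astrocytes of mutant 13 (18.6 to 18.97 CPM), and *Oas1a* at 0.0 CPM in astrocytes of wild type 5, where the others rest on 3 reads each (0.157 to 0.180 CPM).

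The difference between animals with Y-linked transcripts and animals with *Xist* was not the same in ECs and in astrocytes for 7 of 36 members. This was read from the interaction term of the fit over all libraries. All 7 were called negative, where 7.36% of 17493 genes were called negative and 7.51% positive. The difference in ECs minus that in astrocytes was -4.32 for *Nlrc5*, -2.21 for *H2-K1*, -1.65 for *Tap1*, -1.499 for *B2m*, -0.94 for *Stat2*, -0.75 for *Gbp7* and -0.47 for *Tap2* on the log2 scale.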

How the results depend on the processing

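The genotype comparisons called 0 members under every alternative, leave-one-out included, and the shares of all genes called in those fits are not given here. By cell type, leaving out each animal gave 33 to 34 called members in mutants and 30 to 33 in wild types, and among animals with Y-linked transcripts the median fell to 2.34 in mutants and 2.25 in wild types. The set comparison was less steady. Its counts are given here without the share of all genes called in the same fit. They cannot be set against the background of the main fit. In ECs, 16 called members became 30 without a filter on low counts, 8 without animals 18 and 22 (median -0.42), and 7 to 17 with each animal left out (7 without animal 18, 8 without 13, 10 without 5). In astrocytes, 12 became 5 without animals 18 and 22, and 5 to 13 with each left out (5 without animal 22). For the difference between cell types, 7 became 17 without a filter and 4 to 7 with each left out (4 without animal 18). The cause was not tested. With the animal as a replicate block the counts were 0 for the difference of genotype effects, 34 by cell type in mutants and 33 in wild types, and 10 for the set difference. The direction turned for *Ifitm3* between genotypes in ECs without animal 22 (0.0099, where leaving out each animal gave -0.60 to 0.0099) and for *Nlrc5* between wild-type cell types among animals with Y-linked transcripts (-0.075). Of values for single members, 1468 kept their side of the threshold and 113 lost the call. Within-set fits rest on 2 animals a group. Low counts limit *Mx1*, and *Oas1a* in astrocytes.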

Other observations

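Markers outside the module set single EC libraries apart. Choroid plexus and ependymal markers summed to 5033 CPM in ECs of wild type 5, against 11.50 to 1038 CPM in the other ECs, and dissociation stress genes to 12538 CPM in ECs of wild type 9, against 4854 to 6557 CPM in the others. Among members, *Irf1*, an early response gene as well as an interferon target, was highest in ECs of wild type 9, at 113 CPM.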
